A study of Mus musculus with 20 samples.

Results

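Heat shock proteins are chaperones, which bind unfolded proteins and help them to fold, to assemble or to reach the protease. HSP70 proteins take up unfolded stretches of protein in cycles driven by ATP, J-domain proteins bring them their clients and start the cycle, HSP110 proteins release the ADP, and HSP90 proteins hold kinases, receptors and other clients in a nearly finished fold. In mitochondria the chaperonin HSP60 and its lid HSP10 enclose proteins after import. Many of these genes are switched on together by the heat shock factor HSF1, which binds inverted repeats of the letters GAA in their promoters.

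The genes described here are Hsp90aa1 and Hsp90ab1 (HSP90), Hspa8, Hspa1a and Hspa1b (HSP70), Hsph1 (HSP110), Dnaja1 and Dnajb1 (J-domain proteins), and Hspd1 and Hspe1 (mitochondrial HSP60 and HSP10). Their rows were found by gene symbol, from a list named with earlier results of these data known. All 10 were found among the 14456 genes listed in the normalized count table, and all 10 passed the filter on low values in every comparison.

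The cells were bone marrow-derived macrophages (BMDM), grown with M-CSF from marrow of wild-type male C57BL/6J mice 8 to 12 weeks old. In a first experiment, 4 libraries came from BMDM exposed to high glucose, 25 mM, and 4 from BMDM exposed to normal glucose, for 24 h each. Normal glucose was 5.5 mM glucose with 19.5 mM mannitol, a sugar alcohol that evens out the osmotic pressure. In a second experiment, naive BMDM received for 24 h either PBS, or exosomes of BMDM from normal glucose (BMDM-NG-exo), or those of BMDM from high glucose (BMDM-HG-exo), with 4 libraries each. Exosomes are small vesicles that cells release. No genotype or other agent set the groups apart. The label of every exosome library carries 1 of 4 dates, and each date occurs once in each of the 3 groups. Nothing in the labels says that the glucose libraries came from separate cultures, so their p-values measure the spread between these libraries only, which may be technical. In bulk RNA, fewer cells with a transcript and less of it per cell cannot be told apart.

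Reads on listed genes ran from 34016445 to 56310712 per library (median 43311931), and the lowest rank correlation within a group was 0.9908. The share of reads on Gm23935, the gene with the most reads in every library, was highest in BMDM-NG-exo library 1 (15.2%). It was lowest in normal glucose library 3 (8.78%), which had the highest share of mitochondrial reads (9.48%). All 9 macrophage markers were listed. The summed normalized count of these markers was 639692 to 715120 in normal glucose and 816845 to 887065 in high glucose. Of this sum, Lyz2 alone had a mean of 480718 in normal and 642842 in high glucose. In high glucose 4 of the 9 (Csf1r, Lyz2, Cd14 and Adgre1) were higher and 3 (Mrc1, Mertk and Cd68) were lower, where 13.3% of all genes passed the test. In the exosome experiment the sum of the 9 markers was 803030 to 848582 with PBS, 726605 to 781834 with BMDM-NG-exo and 743390 to 766656 with BMDM-HG-exo. Against PBS, 5 of the 9 were lower with BMDM-NG-exo and 5 with BMDM-HG-exo, where 3.0% and 4.84% of all genes passed the test. Of the markers of other cells, 5 of 10 of neutrophils and their precursors, 3 of 6 of fibroblasts and 1 of 4 of B cells were listed, with sums of 165 to 378, 107 to 349 and 17.4 to 68.0 over all libraries. Those of T and NK cells, dendritic cells and erythroid cells were not listed. The part of these marker differences in the results on heat shock genes was not tested.

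RefSeq promoter letters (GRCm38.p6, 250 bases before to 50 after an annotated start) were at hand for 7 of the 10 genes, in 12 windows. They were not at hand for Hspa8, Hsp90aa1 and Hsp90ab1. They are shown for the heat shock factor motif, and the genes were chosen as heat shock genes. The part of the motif in the results on these genes was not tested. The shorter form of the motif, GAANNTTC or TTCNNGAA, joins 2 units, GAA and TTC. It was in a window of 6 of these 7 genes (Hspa1a, Hspa1b, Hsph1, Dnaja1, Hspd1 and Hspe1), against 17% of 27025 genes. By windows, it was in 7 of their 12, against 15.1% of all 32851 windows. The longer form of 3 units, TTCNNGAANNTTC or GAANNTTCNNGAA, which contains the shorter one, was in a window of 3 of the 7 (Hsph1, Hspd1 and Hspe1), against 0.662% of all genes. Both forms read the same on the other strand. Dnajb1 held neither form in its 2 windows. Hspe1 and Hspd1 lie head to head on opposite strands of chromosome 1 and share 1 site, chr1:55088053-55088082, read here on the plus strand, with the motif from position -89 for Hspe1 and from position -144 for 1 of the Hspd1 starts. The first Hsph1 line is chr5:149636351-149636380 (minus strand, motif from position -33) and the second is chr5:149636287-149636308 (minus strand, motif from position 37, after the start). The Dnaja1 line is chr4:40722333-40722362 (plus strand, motif from position -124). Positions are counted from the RefSeq start of the window. GENCODE M21 places the outer ends of Hspd1, Hsph1 and Dnaja1 upstream of the starts used for these sites, so that the Hspd1 and Hspe1 site lies within Hspd1, and the first Hsph1 site and the Dnaja1 site lie within their genes. Capitals mark the motif.
Hspe1 and Hspd1: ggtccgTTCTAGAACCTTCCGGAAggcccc
Hsph1, before the RefSeq start: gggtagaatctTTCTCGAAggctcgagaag
Hsph1, after the RefSeq start: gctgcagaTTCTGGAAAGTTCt
Dnaja1: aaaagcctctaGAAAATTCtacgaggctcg

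Hspa1a and Hspa1b, the stress-inducible HSP70 genes, are neighbouring copies on chromosome 17. Their windows differed at 4 of 300 bases, 3 of them before the start, and they are printed to show how alike the copies are. The 250 bases before the start are chr17:34972157-34972406 for Hspa1a and chr17:34959239-34959488 for Hspa1b, both on the minus strand. Capitals mark the shorter form of the motif, from position -104.
Hspa1a: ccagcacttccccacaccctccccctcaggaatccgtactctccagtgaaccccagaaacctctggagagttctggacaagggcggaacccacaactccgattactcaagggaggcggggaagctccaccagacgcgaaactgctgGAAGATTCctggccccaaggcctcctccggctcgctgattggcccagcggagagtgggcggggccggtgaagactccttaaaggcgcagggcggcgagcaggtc
Hspa1b: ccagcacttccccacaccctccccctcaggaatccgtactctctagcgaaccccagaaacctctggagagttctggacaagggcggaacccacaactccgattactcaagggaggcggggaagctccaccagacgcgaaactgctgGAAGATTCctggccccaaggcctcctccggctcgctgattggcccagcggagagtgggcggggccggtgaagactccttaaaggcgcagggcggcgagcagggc

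The levels of the 10 genes differed widely. The order given here is per kilobase of exon, over all annotated exons of a gene, and depends on that length. Hsp90ab1 was highest with a mean over the 20 libraries of 12975 normalized counts per kilobase. Hspa8 followed with 12023, and this order held in 19 of 20 libraries. Before division by length, however, the mean normalized count was 51710 for Hspa8 and 38913 for Hsp90ab1. Per kilobase, Hsp90aa1 came next with 2207 normalized counts. The mitochondrial pair stood side by side, Hspe1 at 906 and Hspd1 at 894 normalized counts per kilobase, with Hspe1 above Hspd1 in 12 of 20 libraries. HSP60 and HSP10 work together in 1 complex. Hsph1 (249), Dnajb1 (235) and Dnaja1 (232 normalized counts per kilobase) formed the next step and were not ordered beyond their spread: Hsph1 was above Dnajb1 in 13 libraries and Dnajb1 above Dnaja1 in 10 of 20. Hspa1b at 32.0 and Hspa1a at 28.3 normalized counts per kilobase were lowest, with Hspa1b above Hspa1a in 14 of 20 libraries. The other steps between neighbours held in all 20 libraries.

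**Figure D1:**
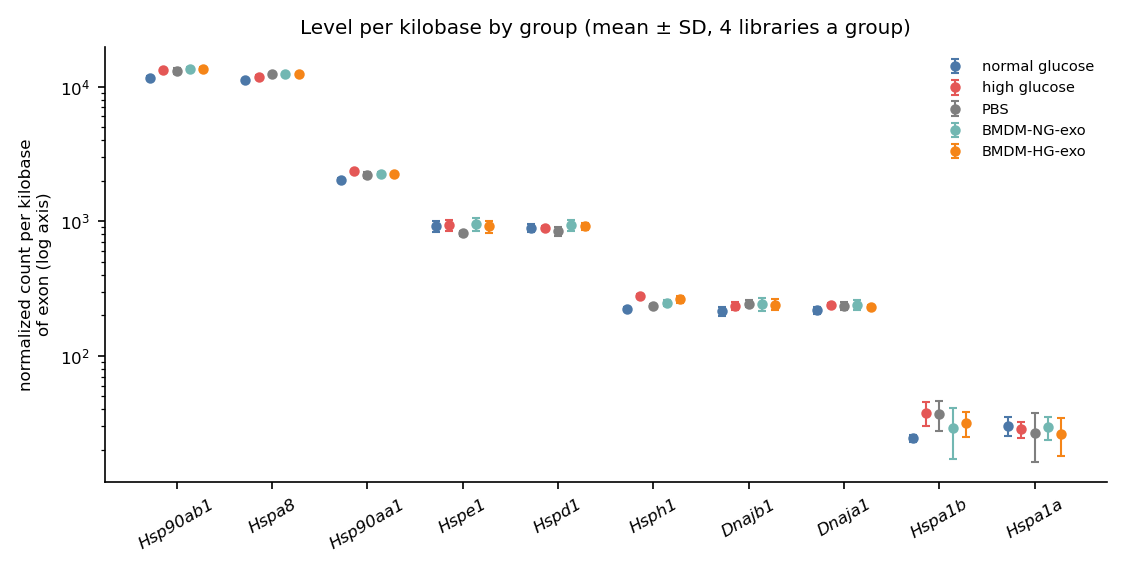
Mean normalized count per kilobase of exon (log axis) of the 10 heat shock genes in the 5 groups, with bars of 1 SD over 4 libraries. The genes stand in order of their mean over all libraries, from 12975 for Hsp90ab1 to 28.3 for Hspa1a, and the groups of a gene lie close together against the steps between genes.

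The comparison of high with normal glucose is made in the macrophages themselves after 24 h. Only normal glucose held mannitol, so more glucose and absence of mannitol cannot be told apart. With each gene's log2 values standardized over the 20 libraries, the mean of the 10 genes was -0.835 in normal and 0.407 in high glucose. With PBS, in the other experiment, this mean was -0.107, and PBS was not tested against the glucose groups. Genes of HSP90, HSP110 and the constitutive HSP70 were higher in high glucose, the mitochondrial pair was at the same level within its spread, and the inducible HSP70 genes, the least expressed, varied most. Of the 10 genes, 4 were higher and 0 lower at an adjusted p-value under 0.05 (limma with Benjamini-Hochberg adjustment over 14425 genes), where 13.3% of all genes tested were called and 7.74% of all genes tested were called higher. The groups did not overlap, with all high glucose libraries above all normal glucose libraries, for 6 of the 10, against 9.18% of all genes. The log2 fold change was above 0 for 9 of 10, with a median of 0.14 against -0.0031 over all genes.

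**Figure D2:**
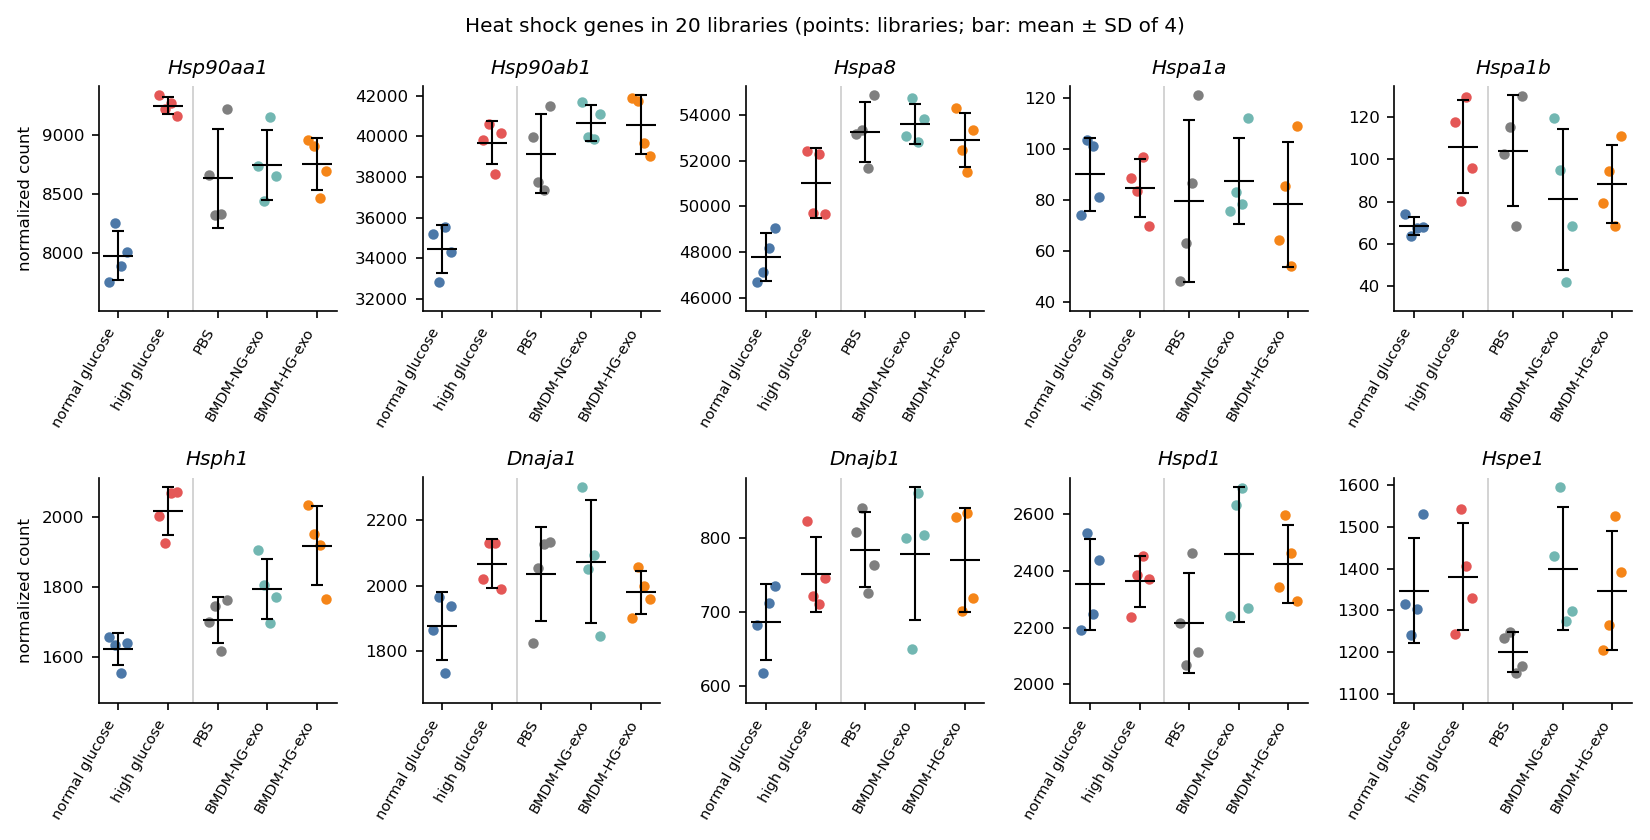
Normalized counts of each gene in the 20 libraries (points) by group, with the mean and SD of 4 libraries in black, on axes that do not start at 0. All high glucose points lie above all normal glucose points for Hsp90aa1, Hsp90ab1, Hspa8, Hspa1b, Hsph1 and Dnaja1, while the points of the 3 exosome groups overlap for most genes.

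Hsp90aa1 and Hsp90ab1 encode the inducible and the constitutive form of cytosolic HSP90. Hsp90aa1 (ENSMUSG00000021270, chr12:110690605-110702728, minus strand; positions of genes are from GENCODE M21 on GRCm38) had normalized counts of 7762, 8257, 7898 and 8011 in normal glucose (libraries 1, 3, 5 and 6), against 9341, 9226, 9278 and 9168 in high glucose (libraries 1, 2, 4 and 6). The 4 high glucose libraries lay within a narrow band, well above the highest normal glucose library. The mean rose from 7982 ± 210 to 9253 ± 73.6 (SD, n = 4 each), which is 15.9% (95% interval 10.2 to 22.0, limma adjusted p = 4.37e-05). Hsp90ab1 (ENSMUSG00000023944, chr17:45567775-45573271, minus strand) had 35174, 32854, 35532 and 34315 normalized counts in normal glucose, against 39841, 40602, 38166 and 40185 in high glucose. Here too every high glucose library was above every normal glucose library. The mean rose from 34469 ± 1191 to 39699 ± 1068, or by 15.2% (95% interval 9.99 to 20.6, limma adjusted p = 2.06e-05). The intervals of the 2 forms overlapped almost fully. After removal of the group means, Hsp90ab1 had r = 0.655 over the 20 libraries with the share of reads on Gm23935, the gene with the most reads in every library, and r = -0.544 with the share of mitochondrial reads. Their part in the Hsp90ab1 values was not tested.

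Hsph1 (ENSMUSG00000029657, chr5:149614287-149636376, minus strand), the HSP110 protein that acts as a nucleotide exchange factor for HSP70, had the most marked change of the called genes. Its normalized counts were 1656, 1633, 1553 and 1640 in normal glucose, against 2002, 1927, 2069 and 2073 in high glucose. The groups were far apart against the spread within them. The mean rose from 1621 ± 46.2 to 2018 ± 68.9, by 24.5% (95% interval 15.3 to 34.3, limma adjusted p = 5.65e-05). Hsph1, Hsp90aa1 and Hsp90ab1 were called under each of 12 other settings of the fit and without any 1 of the 8 libraries.

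Hspa8 (ENSMUSG00000015656, chr9:40800984-40810087, plus strand), the HSP70 gene that cells express at all times, had 46707, 47135, 48195 and 49064 normalized counts in normal glucose, against 52439, 49695, 52278 and 49665 in high glucose. The groups did not overlap, but 2 of the high glucose libraries were close to the highest normal glucose library. The mean was 47775 ± 1063, against 51019 ± 1548 in high glucose, a difference of 6.77% (95% interval 2.10 to 11.7, limma adjusted p = 0.0424). This call held under 7 of 12 other settings, and it was lost when any library other than normal glucose 6 was left out (adjusted p of up to 0.152). With quantile normalization, which gives the values of all libraries 1 distribution, the log2 fold change of Hspa8 was -0.06. Of the 100-base stretches of Hspa8 transcripts 28.5% also occurred in transcripts of other genes, as did 38.0% of those of Hsp90aa1. For Hspd1, Dnaja1 and Hspe1 the shares were 23.9%, 16.6% and 11.0%, and for Hsp90ab1, Hsph1 and Dnajb1 0%. The counts of genes with such shared stretches are less certain.

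The inducible copies Hspa1a (ENSMUSG00000091971, chr17:34969190-34972156, minus strand) and Hspa1b (ENSMUSG00000090877, chr17:34956436-34959238, minus strand) rested on 38 to 122 and 50 to 150 reads per library. Hspa1b had normalized counts of 74.3, 64.0, 67.7 and 67.9 in normal glucose, against 118, 80.5, 130 and 95.8 in high glucose. Its groups did not overlap, and the high glucose libraries were spread widely. The mean was 68.5 ± 4.26 and 106 ± 22.0, a difference of 51.6% that missed the threshold (95% interval 10.6 to 108, limma adjusted p = 0.0724). Hspa1a had 74.3, 103, 101 and 81.3 in normal glucose, against 88.8, 83.7, 97.0 and 69.6 in high glucose, and the groups overlapped. The difference was -5.50% (95% interval -30.8 to 29.0, limma adjusted p = 0.866). Of the stretches of 100 bases in the Hspa1a transcripts, 56.5% also occurred in transcripts of other genes, Hspa1b first among them, and for Hspa1b the share was 49.9%, so how reads were split between the copies is uncertain. The sum of both, which does not depend on the split between them, was 158 ± 11.1 in normal glucose and 191 ± 31.0 in high glucose with overlapping groups (limma adjusted p = 0.340). Hspa1b was called with DESeq2, with quantile normalization and without high glucose library 2 (adjusted p = 0.0474).

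The J-domain genes Dnaja1 (ENSMUSG00000028410, chr4:40722150-40737149, plus strand) and Dnajb1 (ENSMUSG00000005483, chr8:83608193-83612653, plus strand) encode HSP40 co-chaperones of HSP70. Dnaja1 had 1864, 1966, 1732 and 1939 normalized counts in normal glucose, against 2021, 2132, 2130 and 1988 in high glucose. The groups did not overlap, though by a small margin, and the difference of 10.3% did not pass the test (95% interval 2.14 to 19.2, limma adjusted p = 0.0844). Dnajb1 had 682, 618, 712 and 735 in normal glucose, against 823, 722, 711 and 746.5 in high glucose. These groups overlapped, with a difference of 9.41% (95% interval -2.52 to 22.8, limma adjusted p = 0.338). Dnaja1 overlaps Smu1 by 608 bases on the opposite strand, and the reads were counted by strand.

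The mitochondrial genes Hspd1 (ENSMUSG00000025980, chr1:55077835-55088243, minus strand) and Hspe1 (ENSMUSG00000073676, chr1:55088132-55091307, plus strand) showed no difference that passed. Hspd1 had normalized counts of 2192, 2534, 2247 and 2437 in normal glucose, against 2238, 2386, 2453 and 2370 in high glucose. Its high glucose libraries lay within the range of normal glucose, and the interval of the difference was -6.77% to 8.38% (limma adjusted p = 0.955). Hspe1 had 1315, 1242, 1304 and 1530 in normal glucose, against 1244, 1543, 1407 and 1331 in high glucose, with overlapping groups although high glucose library 2 was just above all normal glucose libraries (interval -7.09% to 13.1%, limma adjusted p = 0.805). Increases as large as those of Hsp90aa1 and Hsp90ab1 lie above both intervals.

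In exact two-sided permutation tests of 4 against 4 libraries, the 6 genes without overlap (Hsp90aa1, Hsp90ab1, Hsph1, Hspa8, Hspa1b and Dnaja1) had p = 0.0286, the smallest that this design allows. Adjusted over the 50 such tests of 10 genes in 5 comparisons, these became 0.159.

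**Figure D3:**
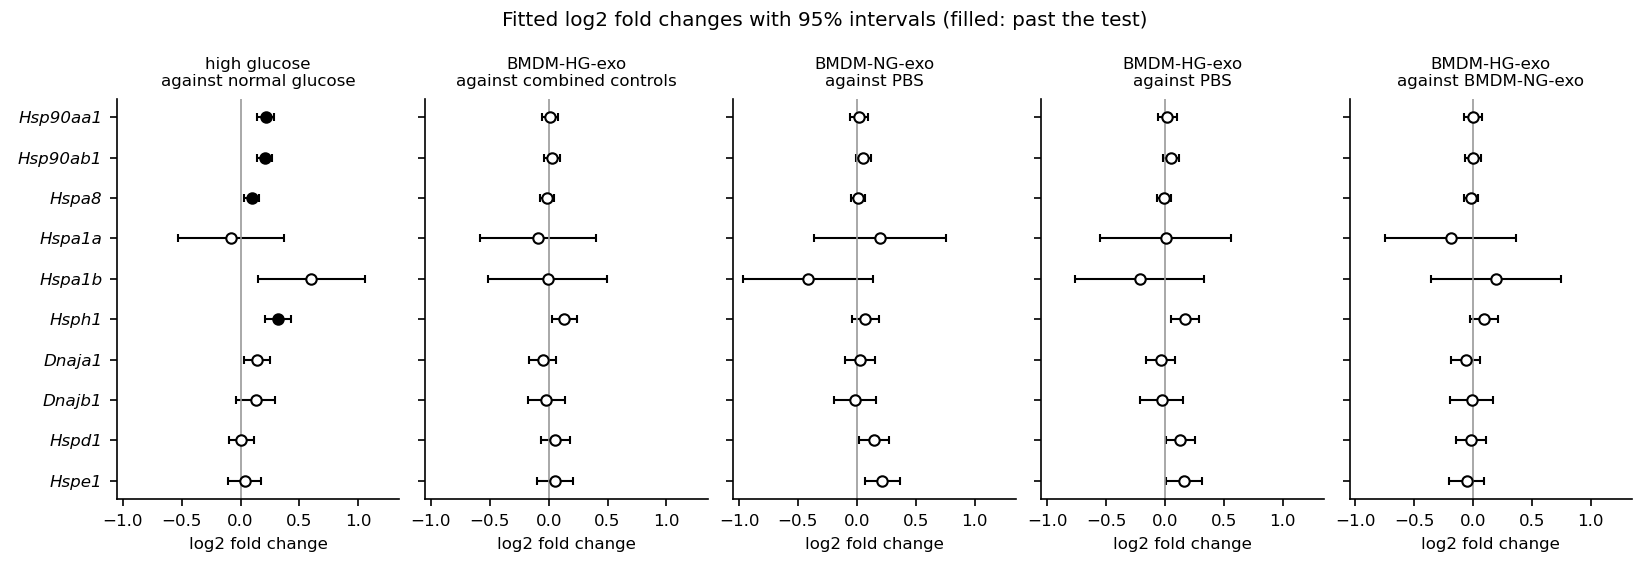
Log2 fold change of each gene in each of the 5 comparisons (point) with its 95% interval (bar). Filled points passed the test: Hsp90aa1, Hsp90ab1, Hspa8 and Hsph1 in high against normal glucose, and no gene in the 4 exosome comparisons, where the widest intervals are those of Hspa1a and Hspa1b.

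The exosome experiment asks whether the exosomes of macrophages change gene expression in naive macrophages, and whether this depends on the glucose in which the donors were kept. Here a call also needed a log2 fold change of 0.15 or more in either direction. The 4 comparisons share libraries, and both comparisons with PBS share the PBS libraries. None of the 10 heat shock genes was called in any of them, whereas 0.201% of all genes were called for BMDM-HG-exo against PBS and BMDM-NG-exo combined, 3.0% for BMDM-NG-exo against PBS, 4.84% for BMDM-HG-exo against PBS and 0.0139% for BMDM-HG-exo against BMDM-NG-exo. Backgrounds this low let few calls be seen among 10 genes. At an unadjusted p-value under 0.05, limma gave 1, 2, 3 and 0 of the 10 in these comparisons, against 10.5%, 13.5%, 16.9% and 6.54% of all genes. edgeR called 0 in all 4, and DESeq2 called 1, Hsph1 in BMDM-HG-exo against PBS. Those with an unadjusted p-value under 0.05 were Hsph1, Hspd1 and Hspe1.

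Hsph1 was the gene with the lowest adjusted p-value for BMDM-HG-exo. Its normalized counts, in the order of library numbers 1 to 4, were 1698, 1744, 1616 and 1762 with PBS, 1905, 1805, 1696 and 1771 with BMDM-NG-exo, and 2036, 1951, 1920 and 1766 with BMDM-HG-exo. The 4 BMDM-HG-exo libraries were above all PBS libraries, as for 4.41% of all genes, library 4 by very little, and the BMDM-NG-exo libraries lay between them and overlapped both. The mean was 1705 ± 65.1 with PBS, 1794 ± 86.8 with BMDM-NG-exo and 1918 ± 113 with BMDM-HG-exo. BMDM-HG-exo was 12.4% above PBS (95% interval 3.60 to 22.0, limma adjusted p = 0.0888) and 9.60% above the combined controls (95% interval 1.83 to 18.0, limma adjusted p = 0.337). Against PBS it was higher at 4 of 4 dates, by 0.0035 to 0.26 on the log2 scale. The difference from PBS passed with quantile normalization, with DESeq2 and without BMDM-HG-exo library 4 (adjusted p = 0.0385).

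Hspe1 and Hspd1 were higher with either kind of exosome than with PBS, without passing the test. Hspe1 had normalized counts of 1235, 1249, 1150 and 1168 with PBS, 1430, 1596, 1275 and 1298 with BMDM-NG-exo, and 1206, 1265, 1526 and 1393 with BMDM-HG-exo. The BMDM-NG-exo libraries were all above those with PBS, as for 3.64% of all genes, while 1 of the BMDM-HG-exo libraries lay among them. The difference from PBS was 16.2% for BMDM-NG-exo (95% interval 4.63 to 29.0, limma adjusted p = 0.122) and 11.8% for BMDM-HG-exo (95% interval 0.710 to 24.2, limma adjusted p = 0.255). Hspd1 had 2218, 2068, 2461 and 2115 with PBS, 2239, 2632, 2691 and 2269 with BMDM-NG-exo, and 2344, 2597, 2462 and 2292 with BMDM-HG-exo. All 3 groups overlapped. Hspd1 was 10.8% above PBS with BMDM-NG-exo (95% interval 1.49 to 21.0, limma adjusted p = 0.259) and 9.52% with BMDM-HG-exo (95% interval 0.314 to 19.6, limma adjusted p = 0.273). It was higher at 4 of 4 dates in both, at 1 date by very little with BMDM-HG-exo. On the log2 scale the differences were 0.014 to 0.35 with BMDM-NG-exo and 0.00083 to 0.33 with BMDM-HG-exo. The Hspd1 level moved against the share of reads on Gm23935 (8.78% to 15.2%): after removal of the group means, r was -0.877 over the 20 libraries, given as a description of points that share a size factor. Hspd1 also moved with the share of mitochondrial reads (r = 0.752). The part of either share in the Hspd1 values was not tested.

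None of the other 7 genes had an unadjusted p-value under 0.05 among the exosome groups. In the order PBS, exosomes from normal glucose, exosomes from high glucose, the mean normalized count was 8637, 8750 and 8759 for Hsp90aa1, 39145, 40666 and 40585 for Hsp90ab1, and 53253, 53607 and 52897 for Hspa8. These abundant genes had narrow intervals. With the 2 kinds of exosome set against each other (BMDM-HG-exo minus BMDM-NG-exo), the 95% interval of the difference was -5.15% to 5.68% for Hsp90aa1, -4.75% to 4.51% for Hsp90ab1 and -5.20% to 2.69% for Hspa8. Dnaja1 had means of 2035, 2073 and 1980 and Dnajb1 of 784, 779 and 771, with intervals for the same comparison of -12.2% to 4.44% and -12.5% to 12.3%. Hspa1a had means of 79.8, 87.4 and 78.2 and Hspa1b of 104, 81.3 and 88.4, with SDs of 16.8 to 33.4, so that Hspa1b had a lower mean with either kind of exosome than with PBS within a wide spread. The inducible pair left much room for a difference at these counts: the interval of Hspa1a between the exosome groups ran from -40.5% to 28.9% and that of Hspa1b from -21.8% to 68.2%.

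High against normal glucose was thus measured in the medium and, through the exosomes, in naive recipients, with no library in common. The difference between the log2 fold changes was tested in 1 fit of all 20 libraries, a test added after the data were seen. Hsp90aa1 rose by 0.21 in the medium and had a log2 fold change of 0.0017 between the exosome groups, and the difference of 0.21 passed (95% interval 0.11 to 0.32, limma adjusted p = 0.00814). Hsp90ab1 had log2 fold changes of 0.20 and -0.0033, with a difference of 0.21 (95% interval 0.11 to 0.30, limma adjusted p = 0.00424). These 2 of the 10 passed, where 4.74% of 14449 genes did. Hsph1 had a difference of 0.22 (limma adjusted p = 0.0970), so its smaller change with exosomes is not shown to differ from that in the medium. Hspa8 (0.11, adjusted p = 0.108) and Dnaja1 (0.20, adjusted p = 0.177) did not pass in limma either. For Hspd1 the difference was 0.024, with an interval of -0.15 to 0.20.

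**Figure D4:**
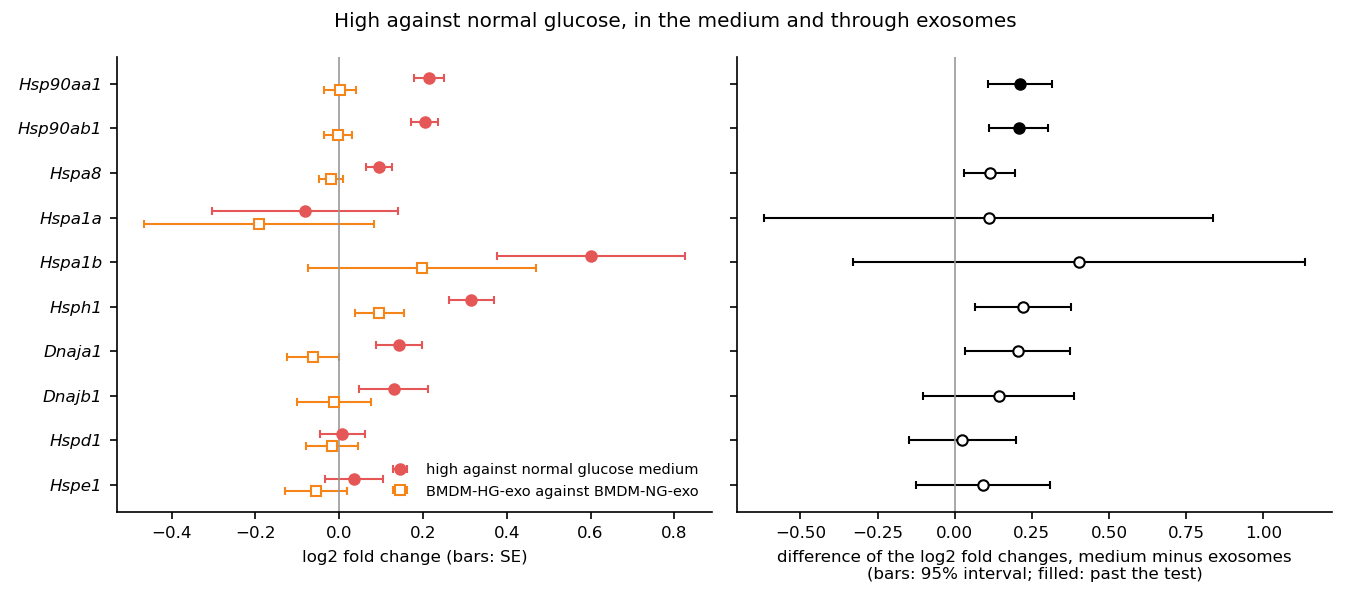
Left, log2 fold change (bars: SE) of each gene for high against normal glucose medium (circles) and for BMDM-HG-exo against BMDM-NG-exo (squares), and right, the difference of both (medium minus exosomes) with its 95% interval. The filled points, Hsp90aa1 and Hsp90ab1, passed the test of the difference, with 0.21 each.

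Across the 20 libraries the 4 genes called in high glucose had correlations above 0 in all 6 pairs. Their choice by a rise within these same libraries favours such correlations. Pearson's r of log2 values was 0.775 for Hspa8 with Hsp90ab1, 0.743 for Hsph1 with Hsp90aa1, 0.728 for Hsp90aa1 with Hsp90ab1, 0.648 for Hsph1 with Hsp90ab1, 0.540 for Hspa8 with Hsp90aa1 and 0.360 for Hspa8 with Hsph1. After the group means were removed, these were 0.176, 0.138, 0.362, 0.369, 0.328 and 0.252, lower in each pair. Hspd1 and Hspe1, which lie head to head, had r = 0.317, or 0.0758 within groups. The most opposed pair was Hspa1b with Hspd1 (r = -0.519, and -0.536 within groups). These values describe libraries that share size factors and groups. Among 11689 other genes with a mean of at least 50, those most like the mean of the standardized heat shock genes over the 20 libraries were Tpt1 (r = 0.894), Creg1 (0.892), Msrb1 (0.890), Esd (0.888) and Tspan5 (0.883). Within groups they were Kat7 (r = 0.858), Vti1b (0.809), Rps4x (0.800), Cnih1 (0.785) and Rps15a (0.779), so none of the first 5 was among them. For summed Hspa1a and Hspa1b, Dnajb9, a J-domain protein of the endoplasmic reticulum, came first with r = 0.830, followed by Fen1 (0.765), Gins3 (0.721), Gemin7 (0.700) and Slc25a32 (0.681), and Dnajb9, Fen1 and Gins3 were again among the first 5 within groups (r = 0.811, 0.789 and 0.863).

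Of 103 genes in 7 further lists of chaperones and their partners, 92 were tested. In high against normal glucose 10 were higher and 1 was lower, together 12.0%, close to the 13.3% of all genes. By direction, 1116 of all 14425 genes tested were called higher (7.74%) and 798 lower. HSP90 co-chaperones, which bind HSP90 and pass clients to it, had 5 of 20 higher and 0 lower, with a median log2 fold change of 0.088. They were Ptges3 (p23, which holds the ATP-bound form; 2718 ± 135 to 3160 ± 127 normalized counts, limma adjusted p = 0.00181), Cacybp (log2 fold change 0.24, adjusted p = 0.00581 by limma), Stip1 (HOP, the bridge between HSP70 and HSP90; 0.20, adjusted p = 0.0145 by limma), Cdc37 (the kinase co-chaperone; 0.12, adjusted p = 0.0319 by limma) and Fkbp5 (0.28, adjusted p = 0.0389 by limma), the last named after its value was seen. The chaperonin TRiC and its helper prefoldin, which fold actin and tubulin, had 2 of 14 higher (Cct7, 3340 ± 136 to 3898 ± 187, and Tcp1, 6663 ± 243 to 7423 ± 388 normalized counts) and 13 of 14 above 0, with a median of 0.10. No test over lists was made, and 0 of the 20 co-chaperones were called by limma when the variance was fitted without a trend.

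The remaining lists had few calls in high glucose. Among other HSP70, HSP110 and J-domain genes, Hspa4, a second HSP110 gene, was higher (log2 fold change 0.11, limma adjusted p = 0.0455) and Dnajc9, a histone chaperone, was lower (-0.38, limma adjusted p = 0.00823), 2 of 20 with a median of 0.0018. Of 9 nucleotide exchange factors and HSP70 regulators Bag1 was higher (0.16, limma adjusted p = 0.00728), and of 22 mitochondrial chaperones and proteases the protease subunit Spg7 (0.23, limma adjusted p = 0.00158), with a median of -0.0041 over that list. Of the list named small heat shock proteins, none of the 3 listed genes was called. Hspb11 had the lowest p there (210 ± 38.2 to 157 ± 15.2 normalized counts, limma adjusted p = 0.0964), and whether each acts as a chaperone was not tested. Nor was any of 4 heat shock factors and their binding proteins called, where Hsf4 had the lowest p (limma adjusted p = 0.523). The transcript of a factor does not tell its activity.

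**Figure D5:**
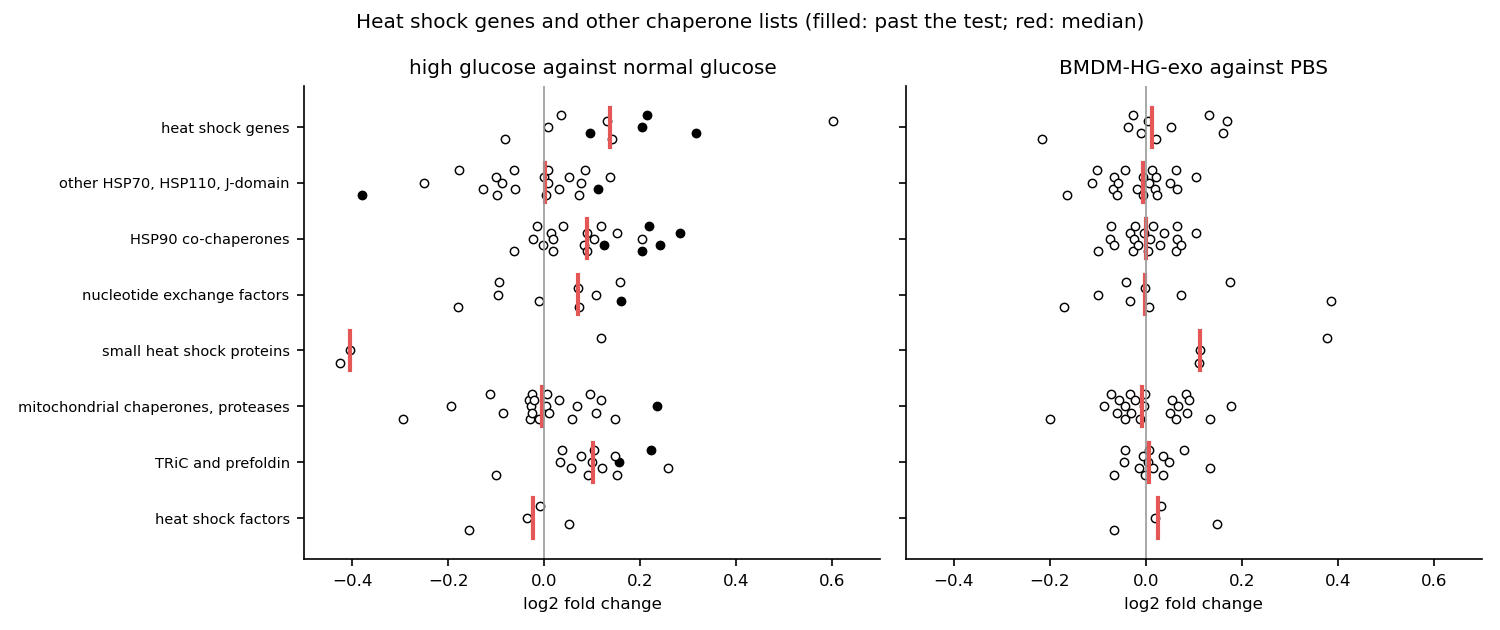
Log2 fold changes of the 10 heat shock genes and of the genes of 7 other chaperone lists in high against normal glucose (left) and in BMDM-HG-exo against PBS (right). Each point is a gene, filled where it passed the test, and red bars are medians: on the left the medians of the heat shock genes (0.14), TRiC and prefoldin (0.10) and HSP90 co-chaperones (0.088) lie above 0, and on the right no gene of these lists passed.

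In the 4 exosome comparisons limma called 0 of these 92 genes, and edgeR called 0 in each. DESeq2 called 1 in BMDM-HG-exo against PBS and 0 elsewhere. By limma, 2 of the 92 had an unadjusted p-value under 0.05 for the combined controls, against 10.5% of all genes. For BMDM-NG-exo against PBS there were 7 (13.5% of all genes) and for BMDM-HG-exo against PBS 4 (16.9%). For BMDM-HG-exo against BMDM-NG-exo there were 9 (6.54%). The lowest p of the lists belonged to Htra2, a mitochondrial protease, at 1059 ± 67.7 normalized counts with BMDM-HG-exo against 1216 ± 88.8 with PBS (limma adjusted p = 0.0894). In 5 of the other lists the genes with the lowest p for BMDM-HG-exo against PBS were Dnajc13, Tsc1, Cryab, Tcp1 and Hsf4, with limma adjusted p-values of 0.306 to 0.768.

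Chaperones of the endoplasmic reticulum were measured beside the cytosolic genes. Of 17, 3 were higher in high glucose (Hyou1, Calr and Hspa5; 13.3% of all genes were called there), 1 was lower with BMDM-NG-exo than with PBS (Hyou1; 3.0% of all genes called), and 4 were lower with BMDM-HG-exo than with PBS (Hspa5, 29168 ± 620 to 25850 ± 584 normalized counts, Pdia4, Hyou1 and Dnajb11; 4.84% of all genes called). The lists were not tested against each other. Of 20 immediate early genes, which many stimuli induce within minutes, 3 were higher (Btg2, Ier5 and Klf2) and 4 lower (Zfp36, Nr4a1, Egr1 and Fosb) in high glucose, beside the same 13.3% of all genes, and 4 (Fos, Junb, Zfp36 and Btg2) were lower with BMDM-HG-exo than with PBS, beside 4.84% of all genes, Fos also against the combined controls.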

How the data were processed

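Total RNA of 20 BMDM libraries was made into stranded libraries (Takara SMARTer pico kit) and sequenced on a NovaSeq. The authors trimmed reads with cutadapt, used STAR to align them to GRCm38 and featureCounts to assign them to genes, and divided by DESeq2 size factors (median of ratios), so the deposited values are a signal of normalized counts per gene. The annotation used for counting is not given in the sources used here. The values of all libraries came out as whole reads times 1 factor per library (100% within 0.001, although in 2 libraries the factor is close to 1). Sums of these reads gave the depth, 34016445 to 56310712, which limits Hspa1a and Hspa1b most. Symbols came from GENCODE M21, matched for 14421 of 14456 genes, and shared and overlapping sequence from its transcripts. RefSeq gave the promoters.

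Each comparison was fitted with limma 3.58.1 (R 4.3.3) on log2(normalized count + 1) with a variance trend, for genes with a mean of at least 10, two-sided, with Benjamini-Hochberg adjustment over all genes. Fold changes are on that scale. Single genes were also compared by an exact permutation test. The fits were tested on simulated counts. Alternatives were edgeR 4.0.16 and DESeq2 1.42.0 on the whole reads, other pseudocounts, filters and normalizations, no trend, array weights, all libraries in 1 fit, a replicate block and each library left out. The main fits and the permutation tests did not pair libraries. The dates in the labels of the exosome libraries were used only for the replicate block and for comparisons within dates. The study made each exosome sample from a separate preparation. Same-date libraries had a mean correlation of deviations of 0.0118 (12 pairs), others -0.0039 (36 pairs).

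The heat shock genes and the lists (7 of chaperones, endoplasmic reticulum chaperones, immediate early genes and 7 of cell type markers) were chosen with earlier results of these data known. Named genes of a list are up to 4 called genes by p in each direction, or the one with the lowest p where none was called, and genes most alike are the 5 with the highest correlation. The named gene of 1 list in the exosome experiment is not reported here.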

Additional observations from a re-analysis of the deposited data

Results flagged for a closer look

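For 2 of the 10 heat shock genes the effect of high glucose differed between the medium and the exosomes, by the test of the difference itself in 1 fit of 20 libraries. Hsp90aa1, the inducible HSP90, had a difference of 0.212 on the log2 scale (medium minus exosomes, limma adjusted p = 0.00814), and it passed under all 11 other settings and without any 1 of 16 libraries, with values of 0.190 to 0.229 in the latter. In the medium the 4 high glucose libraries were above the 4 normal glucose libraries, while the exosome groups overlapped. Hsp90ab1, the constitutive HSP90, had a difference of 0.207 (limma adjusted p = 0.00424), which passed under 9 of 11 other settings and without any 1 of 16 libraries, with values of 0.184 to 0.226. The experiments also differ in the cells that received the treatment and in their controls, and the test was added after the data were seen. No library stood apart from its group in any of the 50 sets of 4 libraries (10 genes in 5 groups).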

How the results depend on the processing

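The count of heat shock genes called moved by over 1.5 times in 5 of 80 values under other settings, and the cause was not tested. In BMDM-HG-exo against PBS it was 1 (Hsph1) with quantile normalization and with DESeq2 in place of 0, and 0 to 1 with 1 library left out, the 1 being Hsph1 without BMDM-HG-exo replicate 4. In the difference of effects it was 1 with quantile normalization, 1 without the variance trend and 4 with DESeq2, in place of 2. Of 478 values of single genes under other settings, 436 kept direction and call, 30 lost and 4 gained a call, and 8 changed sign. The latter were small in the main analysis. In high against normal glucose, quantile normalization gave log2 fold changes of 0.019 for Hspa1a, -0.062 for Hspa8 and -0.028 for Hspd1, the replicate block gave 0.017 for Hspa1a, -0.0049 for Hspd1 and -0.14 for Hspe1, and Hspa1a summed with Hspa1b had 0.25. Between the exosome groups Hsp90aa1 had -0.00093 with quantile normalization. With 1 library left out, the range was -0.17 to 0.0083 for Hspa1a, -0.026 to 0.044 for Hspd1 and -0.019 to 0.098 for Hspe1 in high against normal glucose, and -0.0086 to 0.10 for Hspe1 in BMDM-HG-exo against the combined controls. In BMDM-HG-exo against BMDM-NG-exo it was -0.060 to 0.028 for Hspd1, -0.12 to 0.0098 for Hspe1, -0.015 to 0.024 for Hsp90aa1 and -0.019 to 0.015 for Hsp90ab1. The replicate block by label date called 0 heat shock genes in each exosome comparison and so changed no call. The glucose libraries share 2 replicate numbers, and nothing in the labels says whether these pair them. The mean correlation of deviations was 0.0084 over 2 pairs, too few to tell. A replicate block there called 3 heat shock genes (Hsph1, Hsp90aa1 and Hsp90ab1) and 788 of all genes in place of 1914. Without the variance trend 654 of all genes were called. For the combined controls 29 genes were called, but 138 with DESeq2, 144 with 20 libraries in 1 fit and up to 204 without BMDM-NG-exo replicate 3. Quantile normalization moved the share of higher calls from 58.3% to 47.5% in high glucose and from 68.9% to 52.6% in the difference of effects. Depth limits Hspa1a and Hspa1b, whose intervals are the widest.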
